A study of Mus musculus with 5 samples.

Results

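The EGR transcription factors and the NAB corepressors that bind them were followed through a seizure time course in the mouse hippocampus. The genes were taken by symbol as Egr1, Egr2, Egr3, Egr4, Nab1 and Nab2, which are 6 of the 55385 genes in the count tables, and all 6 passed the filter on low counts that left 19768 genes for testing. The study asked how strong neuronal activity changes hippocampal transcripts, and sequenced total RNA from male C57/bl6 mice at 3 months of age. The control library came from untreated mice and is labelled 0 h. The other libraries came from mice given 20 mg/kg kainic acid, a glutamate receptor agonist that provokes seizures, by intraperitoneal injection and sacrificed 1 h, 4 h or 8 h after seizure onset. There was 1 library for the control, 1 for 1 h, 2 for 4 h (library 1 and library 2) and 1 for 8 h. The control mice had no injection according to their label, so injection and kainic acid cannot be told apart in any comparison with it. How many mice went into a library is not stated in the sources used here, and the spread between the 4 h libraries may therefore be technical in part. The control had 19100374 reads on genes, the 1 h library 17744508, library 1 and library 2 of 4 h 18250114 and 19109204, and the 8 h library 16612225. Egr1 lies on the plus strand of chromosome 18 (GRCm38), from 34859823 to 34864984.

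EGR proteins are zinc finger activators that bind GC-rich sites, and their genes are classic immediate early genes, switched on by synaptic activity through ERK, CREB and SRF without new protein synthesis. NAB1 and NAB2 have no DNA binding of their own. They dock on a repression domain of EGR1, EGR2 and EGR3, recruit chromatin repressors and limit activation, and Nab2 is itself known as an EGR target, which closes a feedback loop. EGR4 lacks the NAB docking domain. In the hippocampus Egr1 and Egr3 are known for their part in synaptic plasticity and memory, and Egr2 is best known for its roles in hindbrain patterning and in myelinating Schwann cells.

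The libraries were first checked against cell type markers, given as the sum of a list in normalized CPM (CPM stands for counts scaled to a common library size, here after TMM). All 5 excitatory neuron markers were counted in every library, and their sum was 3776 in the control, 3902 at 1 h, 3519 and 3496 in library 1 and library 2 at 4 h, and 3358 at 8 h. Snap25 and Camk2a make up most of this sum, and Neurod6 did not follow it, with 144 normalized CPM in the control against 60.9 and 67.1 in the 4 h libraries. The sum of the 4 markers of dentate granule cells, the neurons of the dentate gyrus, lay between 217 and 276 in all libraries, but its genes went different ways. In the order control, 1 h, library 1 and library 2 of 4 h and 8 h, Prox1 had 60.0, 67.2, 172, 120 and 77.1 normalized CPM, and Dsp had 72.2, 66.1, 4.34, 13.6 and 68.5. Library 1 of 4 h stood apart in the choroid plexus list, whose 4 genes summed to 26.4 there, against 4176 in library 2, 3932 in the control, and 1662 and 3032 in the 1 h and 8 h libraries. Ttr was the most abundant of them. Library 1 also had the largest share of reads on no gene, 33.1%, against 25.3% in library 2 and 24.7%, 29.0% and 30.9% in the control, 1 h and 8 h libraries. The part of these differences in the EGR and NAB values was not tested, and the levels of these genes at 4 h are therefore given for both libraries. The interneuron sum was 494, 550, 822, 677 and 496 in the same order (5 markers), where Gad1 went from 256 in the control to 515 and 379 in the 4 h libraries and Pvalb had 23.0, 24.8 and 22.0, and the astrocyte sum was 1117, 1190, 1714, 1557 and 1455 (5 markers), with Gfap at 221 in the control and 587 in the 8 h library, where Gja1 had its lowest value, 98.6. In tissue RNA, fewer cells of a type and less RNA per cell cannot be told apart.

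Egr1, the most widely studied member, had 580 counts in the control and 3781 in the 1 h library. Of the 4 h libraries, library 1 had 1668 and library 2 had 584, and the 8 h library had 334. In normalized CPM these are 29.1, 215, 99.1, 30.9 and 19.1. The 1 h library was 7.38-fold above the control (exact binomial 95% interval 6.76 to 8.07), whereas library 2 of 4 h was at 1.06 times the control (0.943 to 1.19) and the 8 h library at 0.654 times (0.570 to 0.749). All intervals given for single libraries cover counting error only and leave out variation between mice and libraries. Reads are not independent molecules, so the intervals may be too narrow even for counting error. The 4 h libraries thus bracket a wide span, with library 1 at 3.40 times the control and library 2 at its level.

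Egr2, also called Krox20, had the greatest distance between lowest and highest library among the 6 genes. It lies on chromosome 10 from 67535475 to 67542188 on the plus strand. Its counts were 48 (control), 3726 (1 h), 334 and 74 (library 1 and library 2 of 4 h) and 21 (8 h), or 2.41, 212, 19.8, 3.91 and 1.20 normalized CPM. The 1 h library stood 87.9-fold above the control (66.2 to 119), and 177-fold above the 8 h library (116 to 286). At 8 h the level was 0.497 times the control (0.283 to 0.846), an interval that rests on 21 and 48 reads. Library 1 of 4 h was still 8.23 times the control, and library 2 was 1.62 times (1.11 to 2.38).
The promoter of Egr2 is shown because this gene, nearly silent in the control, reached the level of its relatives within 1 h. Of its 5 RefSeq windows for alternative starts (GRCm38.p6), the one shown (chr10:67537619-67537868) holds a CArG box, the binding sequence of SRF, and 2 copies of TGACG, the core of the CREB site, counting both strands. The capitals mark these matches.
Egr2, chr10:67537793-67537822, plus strand, CArG box and the second TGACG read on the other strand: cagtCCATATATGGgcagcgaCGTCAcggg
Egr2, chr10:67537752-67537768, plus strand, first TGACG: gccatgTGACGgcaaaa
Of the other 4 windows, 2 overlap this one and hold the same matches, 1 holds a different CArG box and no TGACG, and the one at the annotated gene start (chr10:67535249-67535498) holds neither. The CArG box lies 72 to 63 bases before the start and the TGACG copies 111 to 107 and 55 to 51 bases before it. Among the 32851 RefSeq windows of 250 bases before a start, 1.47% hold a CArG box, 17.8% hold TGACG, 3.90% hold at least 2 copies of TGACG and 0.170% hold both a CArG box and TGACG. These shares are per window, whereas the window shown was picked from 5. A match of letters is a description and not proof of binding.

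Egr3 differed from its relatives in how its level ran on after 1 h. It lies on chromosome 14 from 70077203 to 70082614 on the plus strand. The control had 547 counts of it, the 1 h library 4030, library 1 and library 2 of 4 h 1931 and 1887, and the 8 h library 958, which are 27.5, 229, 115, 99.8 and 54.6 normalized CPM. The 4 h libraries were 4.17-fold (3.79 to 4.60) and 3.63-fold (3.30 to 4.00) above the control, and their mean was 107 ± 10.5 normalized CPM (SD, n = 2). At 8 h Egr3 was still at 1.99 times the control (1.79 to 2.21), the only EGR gene above the control in that library. From 1 h to 8 h its level was 4.20-fold lower, compared with 11.3-fold for Egr1, 43.9-fold for Egr4 and 177-fold for Egr2.

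Egr4, which activates transcription without being held by NAB proteins, lies on chromosome 6 from 85511121 to 85513589 on the minus strand. It was counted 79 times in the control, 1893 times in the 1 h library, 534 and 227 times in library 1 and library 2 of 4 h and 43 times in the 8 h library, or 3.97, 108, 31.7, 12.0 and 2.45 normalized CPM. It was 27.1-fold above the control at 1 h (21.7 to 34.4). Unlike Egr1 and Egr2 it was more than 2-fold above the control in both 4 h libraries, at 7.99 times in library 1 and 3.02 times in library 2 (2.33 to 3.96). At 8 h it stood at 0.618 times the control (0.416 to 0.907).
The 250 bases before its RefSeq start (GRCm38.p6, minus strand) are shown with 2 copies of TGACG in capitals, both read on the other strand as CGTCA. These letters are not particular to the EGR genes, as the window of Nab1 also holds 1 copy of TGACG. They lie 177 to 173 and 109 to 105 bases before the start, and no CArG box was found in this window.
Egr4, chr6:85513590-85513839, minus strand: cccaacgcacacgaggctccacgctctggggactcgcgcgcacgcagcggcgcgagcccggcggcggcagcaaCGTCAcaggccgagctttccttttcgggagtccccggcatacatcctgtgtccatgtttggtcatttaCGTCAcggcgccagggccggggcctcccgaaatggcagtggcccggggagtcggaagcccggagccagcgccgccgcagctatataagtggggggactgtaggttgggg

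Nab2, the corepressor known as a target of the EGR factors it binds, lies on chromosome 10 from 127660918 to 127668568 on the minus strand. Counts were 584 for the control, 1101 for 1 h, 639 and 725 for library 1 and library 2 of 4 h and 584 for 8 h, or 29.3, 62.6, 38.0, 38.3 and 33.3 normalized CPM. It was 2.13-fold above the control at 1 h (1.93 to 2.36), and between 1.14 and 1.31 times the control in the later libraries. The 4 h libraries were nearly equal for Nab2, with a mean of 38.1 ± 0.276 normalized CPM (SD, n = 2). Genes on the opposite strand overlap its exons, with 40 bases shared by Stat6, 151 by Nemp1 and 1050 by the antisense gene Gm16229. The kit kept strand, but the strand setting of the counting is not given in the sources used here. HTSeq set aside 1.26% to 1.52% of the reads of a library as ambiguous, and these are in no gene's count. Whether reads on the shared bases went to Nab2 or to this class was not tested. If set aside, Nab2 counts and levels per kilobase are too low, and ratios over Nab2 or over the summed NAB genes too high. The counts of the overlapping genes were low, with 174 to 204 for Stat6, 63 to 129 for Nemp1 and at most 1 for Gm16229. They also leave out ambiguous reads, so they do not show how many reads lie on the shared bases.

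Nab1, the second corepressor, lies on chromosome 1 from 52457294 to 52500679 on the minus strand and varied least. Counts were 892 for the control, 995 for 1 h, 1085 and 991 for library 1 and library 2 of 4 h and 793 for 8 h, or 44.8, 56.6, 64.4, 52.4 and 45.2 normalized CPM. Its ratio to the control was 1.26 at 1 h (1.15 to 1.38), 1.44 and 1.17 in the 4 h libraries, and 1.01 at 8 h (0.916 to 1.11). The highest level was in library 1 of 4 h, not at 1 h, which sets it apart from the other 5 genes.
Stretches of the 250 bases before the RefSeq start of Nab1 (GRCm38.p6, minus strand) are shown because they hold the letters of EGR binding sites, in capitals, in a gene whose level moved little while the EGR factors were high. Both strands were searched for GCGTGGGCG and GCGGGGGCG.
Nab1, chr1:52500575-52500595, minus strand, GCGTGGGCG read on the other strand: cgcggcCGCCCACGCcgggat
Nab1, chr1:52500543-52500563, minus strand, GCGTGGGCG: ggccgcGCGTGGGCGggagcc
Nab1, chr1:52500472-52500492, minus strand, GCGGGGGCG: ggcgggGCGGGGGCGgcggag
GCGTGGGCG is in 0.536% and GCGGGGGCG in 2.57% of the 32851 windows, and 3.06% hold at least 1 of them. Of the 250 bases, 231 fall within an exon annotated by GENCODE, and 80.8% are G or C. Neither EGR sequence was found in the windows of Egr2 and Egr4 or in the only window of Nab2 (chr10:127666704-127666953), which lies inside the annotated gene and not before its outermost start, and TGACGTCA, the full CREB site, which contains TGACG, was in none of the 4 genes' windows. It is in 1.55% of all windows. RefSeq windows were matched for 4 of the 6 genes, and those of Egr1 and Egr3 were not.

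**Figure D1:**
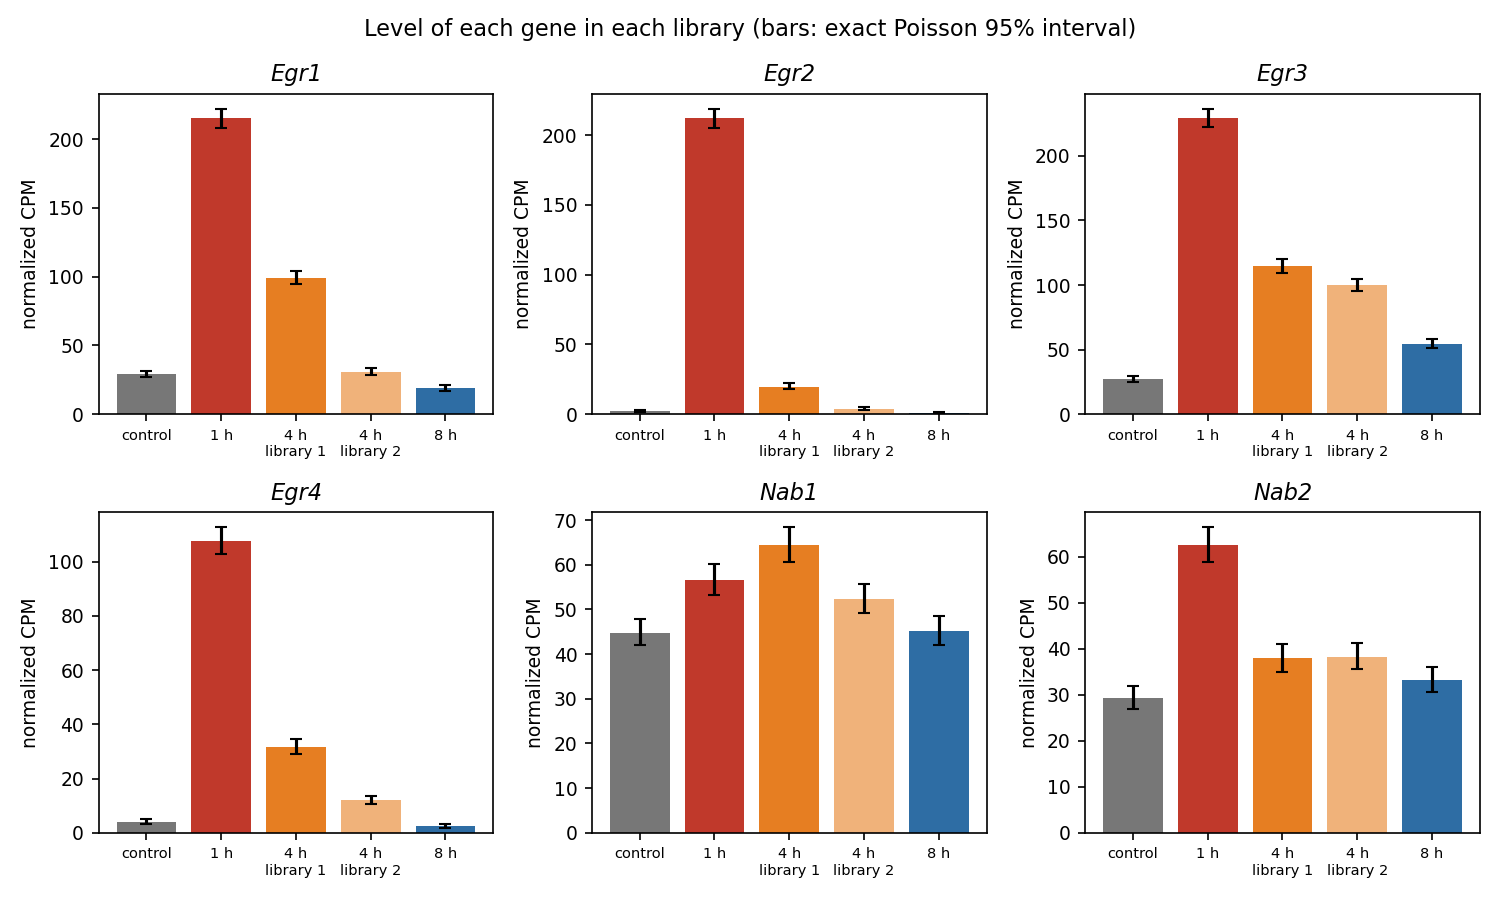
Level of Egr1, Egr2, Egr3, Egr4, Nab1 and Nab2 in normalized CPM (y axis) in each of the 5 libraries (x axis). Bars are single libraries and the lines on them exact Poisson 95% intervals, which cover counting error only. All genes but Nab1 are highest at 1 h, the 4 h libraries differ for Egr1, Egr2 and Egr4, and Egr3 alone of the EGR genes is above its control level at 8 h.

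Of the 6 genes, 5, all but Nab1, had their highest level at 1 h, and the same was true of 15.6% of all genes tested. At least 2-fold above the control at 1 h were 5 of 6 (Egr1, Egr2, Egr3, Egr4 and Nab2), against 5.46% of all genes tested, and none was 2-fold below it, against 3.85%. In both 4 h libraries, 2 of 6 (Egr3 and Egr4) were at least 2-fold above the control, against 4.98% of all genes, and none 2-fold below, against 1.51%. At 8 h none was 2-fold above the control, against 6.83%, and 1 (Egr2) was 2-fold below it, against 3.41%. Both counts at 8 h hang on values at the threshold, with Egr3 at 1.99 and Egr2 at 0.497 times the control, whose counting intervals span 2-fold. These counts describe single libraries at 1 h and 8 h and have no replicate check.

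Differences were then tested across all 19768 genes with the quasi-likelihood test of edgeR. Only the 4 h libraries are replicated, so the spread of every group is borrowed from that pair, and the single libraries are assumed to vary like it. The fitted log2 fold changes from the control at 1 h were 6.39 ± 1.20 (SE) for Egr2, 4.72 ± 0.75 for Egr4, 3.06 ± 0.22 for Egr3, 2.88 ± 0.78 for Egr1, 1.09 ± 0.22 for Nab2 and 0.34 ± 0.24 for Nab1. Ranked by this value from the top, Egr2 was number 6 and Egr4 number 14 of 19768, with Egr3 at 64, Egr1 at 74, Nab2 at 687 and Nab1 at 3303. Just above Egr2 were Npas4 (7.43), Atf3 (7.18), Fosb (6.68), Fos (6.52) and Gm47075 (6.50). Each SE was derived from the F statistic of this test, so it restates the test and is not separate evidence. The standard errors of Egr1, Egr2 and Egr4 were wide because the 4 h libraries differ for these genes.

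In no comparison did any of the 6 pass an adjusted p of 0.05 (edgeR, Benjamini-Hochberg). Before adjustment, a p under 0.05 was found at 1 h for 5 of the 6 and for 478 of 19768 genes. Among the 6 the smallest was that of Egr3, with an adjusted p of 0.168 (edgeR, Benjamini-Hochberg). Of all genes, the test called 0% for 1 h, 0.00506% for 4 h and 0% for 8 h against the control, 0.00506% for 4 h against 1 h and 0% for 8 h against 4 h. The 1 gene called at 4 h, against either the control or 1 h, was ETV3L, named here after its values were seen. DESeq2's Wald test, whose estimate of the spread differs, called Egr3 (adjusted p 3.89e-14, Benjamini-Hochberg) and Egr4 (adjusted p 0.0351, Benjamini-Hochberg) at 1 h among 0.449% of the genes to which it gave an adjusted p. On data simulated for 4 h against the control, DESeq2 made more false calls than its threshold allows, as did edgeR and limma-voom. The 1 h comparison was not simulated. Over the 7 alternative tests, filters and scalings, the Benjamini-Hochberg adjusted p ran from 9.39e-30 to 0.359 for Egr3 at 1 h and from 1.30e-37 to 1.00 for Egr4 at 1 h, and was under 0.05 in 3 and 4 of them. Limma-voom called none of the 6 and 0 of 19768 genes.

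At 4 h the log2 fold changes from the control were 2.43 ± 0.64 (SE) for Egr4, 2.24 ± 0.99 for Egr2, 1.96 ± 0.20 for Egr3, 1.15 ± 0.67 for Egr1, and 0.38 for Nab1 (SE 0.21) and Nab2 (SE 0.20). An unadjusted p under 0.05 was found in edgeR for 2 of the 6 and 2291 of all genes. DESeq2 called 1 of the 6, Egr3 (adjusted p 1.54e-07, Benjamini-Hochberg), among 1.7% of genes, and over the 7 alternatives its Benjamini-Hochberg adjusted p ran from 3.71e-15 to 0.643. The value of Egr1 depended on the library, at 1.76 without library 2 and 0.08 without library 1, and so did those of Egr2 (2.98 and 0.67) and Egr4 (2.96 and 1.57). That of Egr3 was 2.06 and 1.86 in the same 2 fits.

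At 8 h the log2 fold changes were 0.99 ± 0.21 (SE) for Egr3, 0.18 ± 0.22 for Nab2, 0.01 ± 0.24 for Nab1, -0.61 ± 0.75 for Egr1, -0.67 ± 0.74 for Egr4 and -0.95 ± 1.28 for Egr2. The values of Egr1, Egr2 and Egr4 lie within 1 standard error of 0. An unadjusted p under 0.05 was found in edgeR for 1 of the 6 (Egr3) and 892 of all genes, and DESeq2 called none of the 6 among 0.235% of genes. The sign of Nab1 at 8 h turned without the filter on low counts, and its sign for 4 h against 1 h turned with library size alone and without library 1.

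Compared with each other, 4 h against 1 h gave log2 fold changes of -4.15 ± 0.80 (SE) for Egr2, -2.30 ± 0.52 for Egr4, -1.73 ± 0.60 for Egr1, -1.10 ± 0.17 for Egr3, -0.71 ± 0.19 for Nab2 and 0.05 ± 0.21 for Nab1. From the bottom of the 19768 genes, Egr2 ranked number 3 and Egr4 number 25 in this comparison. In edgeR 5 of the 6 and 1569 of all genes had an unadjusted p under 0.05. DESeq2 called 1 of the 6, Egr3 (adjusted p 0.0491, Benjamini-Hochberg), among 0.823% of genes, and its Benjamini-Hochberg adjusted p over the 7 alternatives ran from 4.70e-06 to 1.00. For 8 h against 4 h the values were -3.19 ± 1.11 for Egr2, -3.10 ± 0.69 for Egr4, -1.76 ± 0.70 for Egr1, -0.97 ± 0.19 for Egr3, -0.37 ± 0.21 for Nab1 and -0.19 ± 0.19 for Nab2. Here 4 of the 6 and 1726 of all genes had an unadjusted p under 0.05 in edgeR, and DESeq2 called none of the 6 among 0.92% of genes. The 8 h against 4 h values without library 1 and without library 2 were -1.62 and -3.93 for Egr2, and -2.24 and -3.63 for Egr4. Those of Egr1 were -0.69 and -2.37, and those of Egr3 -0.87 and -1.07.

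**Figure D2:**
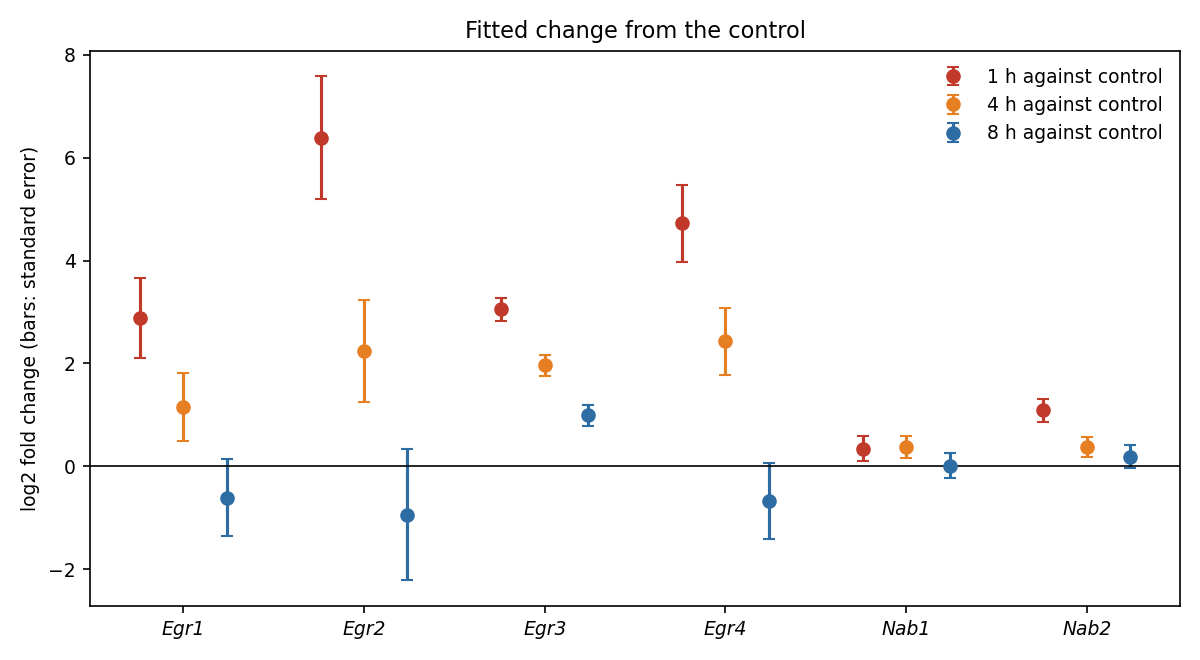
Fitted log2 fold change from the control (y axis) of each gene (x axis) at 1 h, 4 h and 8 h, as points from edgeR's fit to 5 libraries. Lines are standard errors derived from the F statistic of its test. The 4 EGR genes lie between 2.88 and 6.39 at 1 h, and Egr3 keeps a narrow error at every time.

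To compare the genes with each other, levels were divided by the length of all exons of a gene in GENCODE M21 and are given as normalized CPM per kilobase. In the control the corepressors led, with 10.9 for Nab1 and 9.98 for Nab2, followed by Egr1 at 6.50, Egr3 at 6.24, Egr4 at 1.85 and Egr2 at 0.710. The counting intervals of Nab1 and Nab2 overlap, as do those of Egr1 and Egr3. At 1 h this order was turned over. Egr2 led with 62.4 (exact Poisson 95% interval 60.4 to 64.4), then came Egr3 at 52.0 (50.4 to 53.7), Egr4 at 50.1 (47.9 to 52.5) and Egr1 at 48.0 (46.5 to 49.5), whose neighbouring intervals overlap, and below them Nab2 at 21.3 and Nab1 at 13.8. At 4 h Egr3 led both libraries with 26.0 and 22.6, and Egr2 was last in both with 5.84 and 1.15. Egr1 was second in library 1 (22.1) and below both corepressors in library 2 (6.89). At 8 h Egr3 was at 12.4 (11.6 to 13.2), Nab2 at 11.3 (10.4 to 12.3) and Nab1 at 11.0 (10.3 to 11.8), neighbours that overlap, while Egr1 at 4.25, Egr4 at 1.14 and Egr2 at 0.353 were clearly lower.

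The make-up of the EGR transcripts differed with these levels. Per length, Egr1 and Egr3 held 42.5% and 40.8% of the EGR sum in the control, Egr4 12.1% and Egr2 4.64%. In the 1 h library the 4 genes were near equal shares, with 29.4% for Egr2, 24.5% for Egr3, 23.6% for Egr4 and 22.6% for Egr1. Egr3 then took the largest share, at 37.9% and 62.4% in library 1 and library 2 of 4 h and 68.3% at 8 h. Near equal shares and the lead of Egr2 at 1 h hold per length only. In counts the 1 h shares were 30.0% for Egr3, 28.2% for Egr1, 27.7% for Egr2 and 14.1% for Egr4. Within a library the ratio of Egr3 to Egr1 counts needs no scaling. It was 0.943 in the control (exact binomial 95% interval 0.838 to 1.06), 1.07 at 1 h (1.02 to 1.11), 1.16 in library 1 of 4 h (1.08 to 1.24), 3.23 in library 2 (2.94 to 3.55) and 2.87 at 8 h (2.53 to 3.26). The interval of library 2 of 4 h overlaps that of the 8 h library and not that of library 1.

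**Figure D3:**
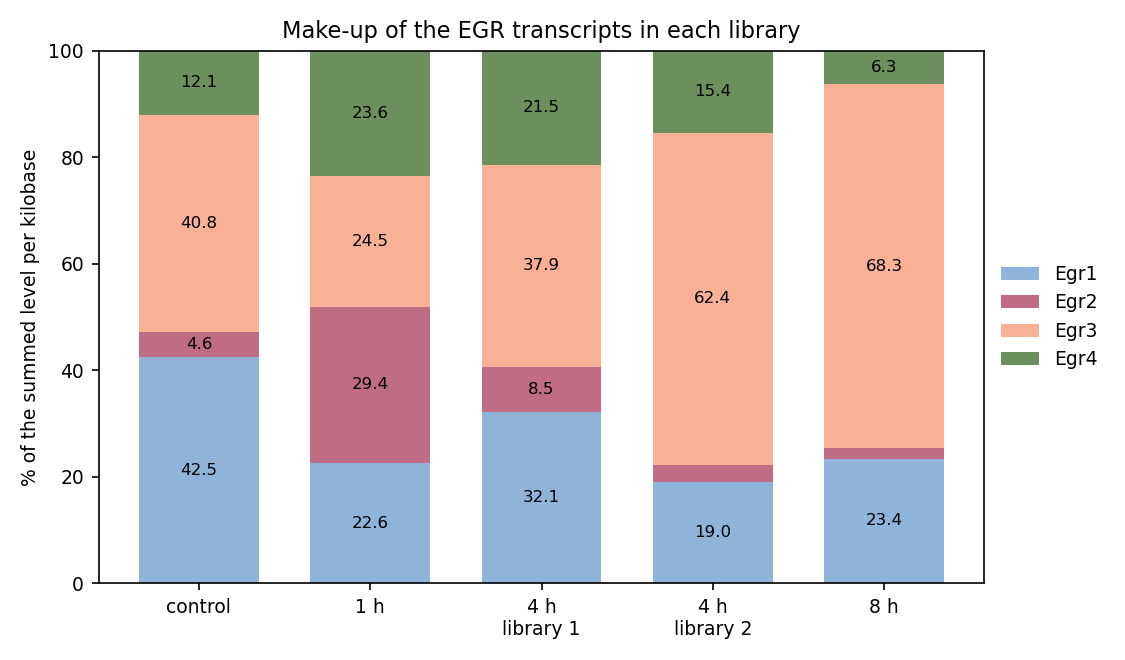
Share of each EGR gene in the sum of the EGR levels per kilobase of exon (y axis, %) in the 5 libraries (x axis). Each bar adds up to 100%. The shares are near equal at 1 h, and Egr3 holds 62.4% in library 2 of 4 h and 68.3% at 8 h.

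Activators were set against corepressors by dividing the summed EGR counts by the summed NAB counts of the same library. Egr4 is in the EGR sum although EGR4 lacks the NAB docking domain, with 1893 of the 13430 EGR counts at 1 h. A sum without Egr4 was not made. This ratio was 0.850 in the control (1254 and 1476 counts, exact binomial 95% interval 0.787 to 0.917) and 6.41 at 1 h (13430 and 2096 counts, 6.12 to 6.71). At 4 h it was 2.59 in library 1 (2.45 to 2.74) and 1.62 in library 2 (1.52 to 1.72), and at 8 h it was 0.985 (0.913 to 1.06). Relative to the control these are 7.54-fold at 1 h, 3.05-fold and 1.90-fold at 4 h, and 1.16-fold at 8 h. The intervals of the 8 h library and the control overlap at their edges. The near return at 8 h joined unlike parts, since without Egr3 the 8 h ratio was 0.603 times that of the control, and without Egr1 it was 1.63 times. The sum without Egr3 was added after the data were seen.

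Nab2 alone served as the second yardstick, as the corepressor known to respond to EGR factors. Egr2 counts were 0.0822 times the Nab2 counts in the control and 3.38 times at 1 h, 0.523 and 0.102 times in the 4 h libraries and 0.0360 times at 8 h. Egr1 went from 0.993 times Nab2 in the control to 3.43 times at 1 h (3.21 to 3.68), and stood at 2.61 and 0.806 times in library 1 and library 2 of 4 h, on either side of the control, and 0.572 times at 8 h (0.498 to 0.655). Egr3 counts exceeded Nab2 counts in every kainic acid library, with 3.66 times at 1 h, 3.02 and 2.60 times at 4 h and 1.64 times at 8 h (1.48 to 1.82), from 0.937 in the control (0.832 to 1.05). These ratios are not divided by exon length. Per kilobase at 8 h, Egr3 at 12.4 (11.6 to 13.2) and Nab2 at 11.3 (10.4 to 12.3) overlap. Egr4 was at 0.135 times Nab2 in the control, 1.72 times at 1 h, 0.836 and 0.313 times in the 4 h libraries and 0.0736 times at 8 h. Between the corepressors, Nab2 was 0.655 times Nab1 in the control (0.589 to 0.728) and 1.11 times at 1 h (1.01 to 1.21), and 0.589, 0.732 and 0.736 times in library 1 and library 2 of 4 h and at 8 h. Only in the 1 h library did Nab2 counts exceed those of Nab1. Per kilobase of exon Nab2 was also above Nab1 in library 2 of 4 h (13.0 and 12.8) and at 8 h (11.3 and 11.0). The counting intervals overlap in both of these libraries.

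**Figure D4:**
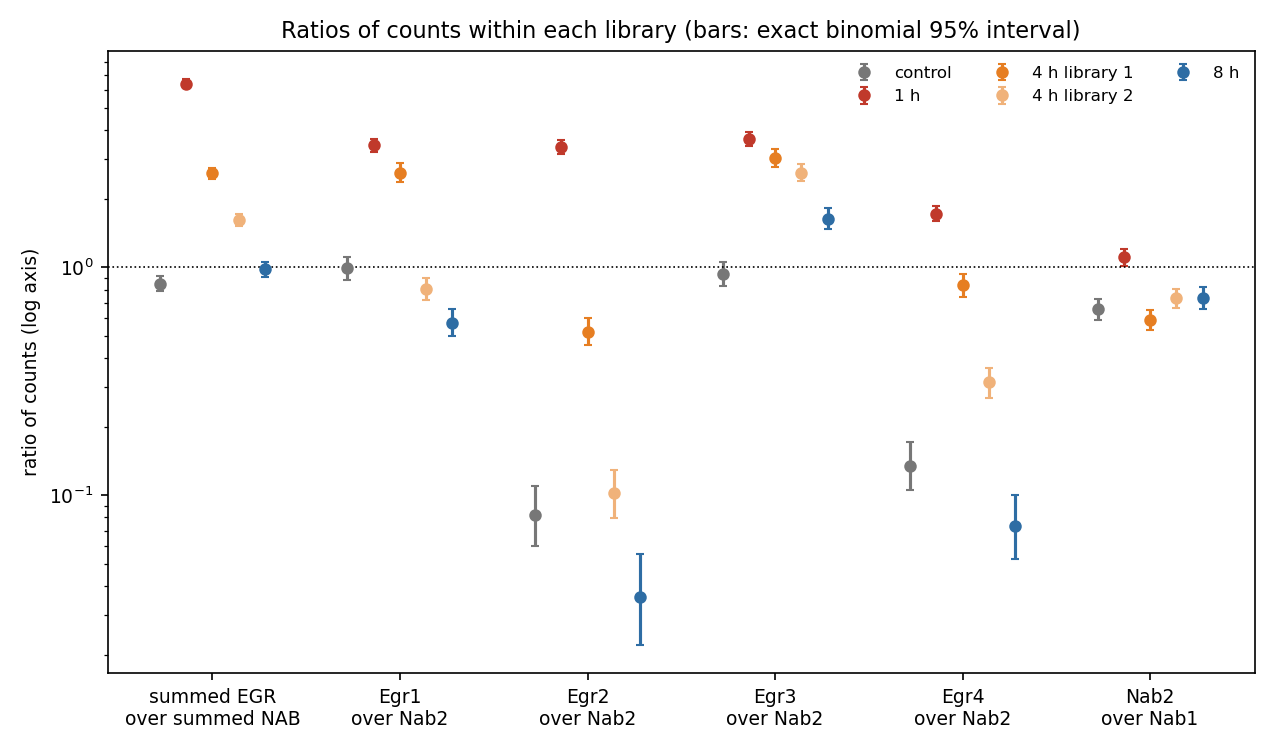
Ratio of counts (y axis, log scale) within each of the 5 libraries for the summed EGR over the summed NAB genes, each EGR gene over Nab2, and Nab2 over Nab1 (x axis). Lines are exact binomial 95% intervals, which cover counting error only, and the dotted line marks equal counts. Egr3 over Nab2 lies above 1 in all kainic acid libraries, whereas Egr1, Egr2 and Egr4 over Nab2 are lower at 8 h than in the control. Counts are not divided by exon length, and per kilobase the intervals of Egr3 and Nab2 overlap at 8 h.

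The 4 h libraries disagreed on Egr1, Egr2 and Egr4 far more than on Egr3, Nab1 and Nab2. Library 1 was 5.07-fold above library 2 for Egr2 (3.93 to 6.61), 3.21-fold for Egr1 (2.92 to 3.53) and 2.64-fold for Egr4 (2.26 to 3.10). The ratio was 1.15 for Egr3 (1.08 to 1.23), 1.23 for Nab1 (1.13 to 1.34) and 0.990 for Nab2 (0.889 to 1.10). So 3 of the 6 were at least 2-fold apart, against 12.1% of all genes tested. Immediate early genes outside the family showed the same side, with 9 of 10 at least 2-fold higher in library 1, from 26.4-fold for Npas4 and 7.38-fold for Fos to 2.79-fold for Arc, and Jun at 1.94-fold. The excitatory neuron markers differed little, with ratios from 0.877 for Slc17a7 to 1.16 for Snap25, and the choroid plexus markers went the other way, with Ttr 243-fold, Kcnj13 95.1-fold, Folr1 87.9-fold and Kl 14.6-fold higher in library 2. The part of the choroid plexus difference in the EGR values was not tested.

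**Figure D5:**
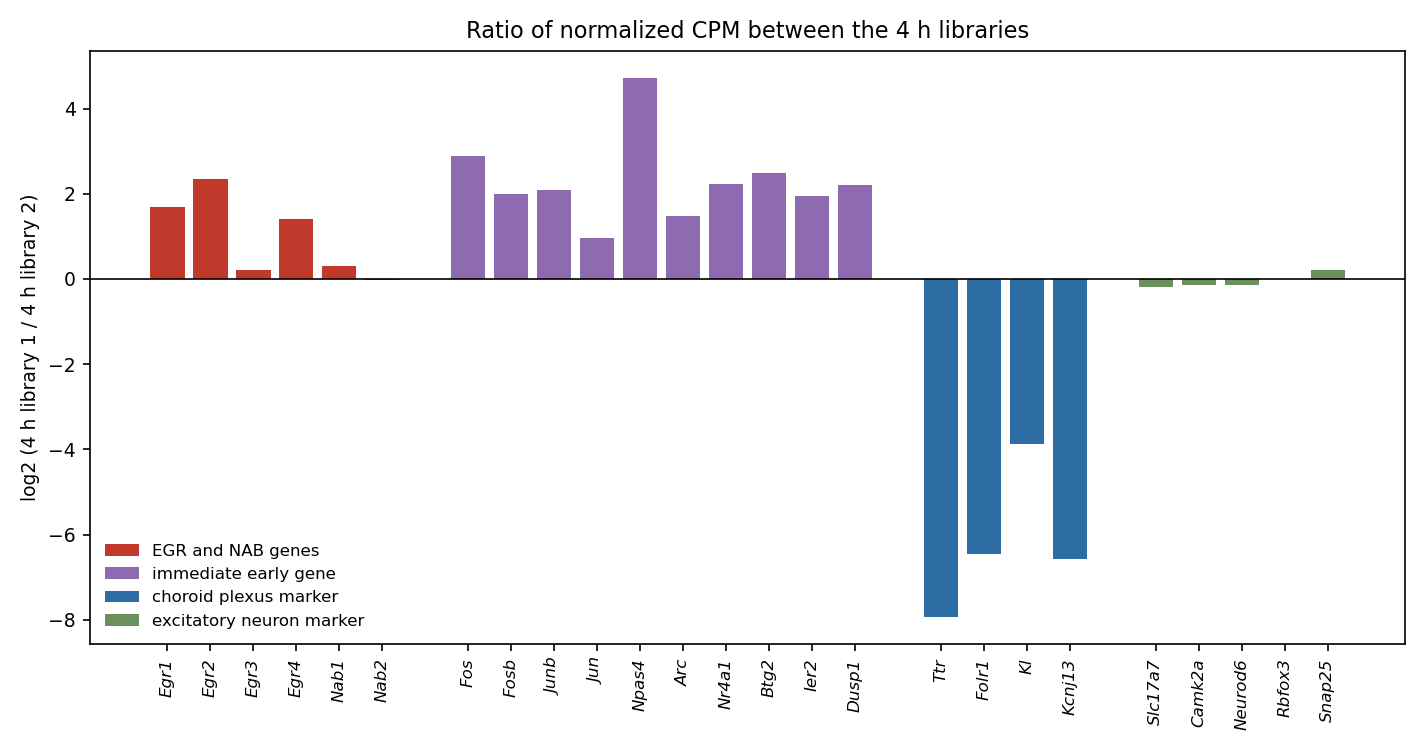
Log2 ratio of normalized CPM between library 1 and library 2 of 4 h (y axis) for the EGR and NAB genes, immediate early genes outside the family, choroid plexus markers and excitatory neuron markers (x axis). Bars above 0 are higher in library 1. Egr1, Egr2 and Egr4 lie with the immediate early genes, and Egr3, Nab1 and Nab2 near 0.

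The other genes of the pathway were taken from lists. All 10 immediate early genes outside the EGR family were at least 2-fold above the control at 1 h, against 5.46% of all genes tested. Their median log2 fold change was 4.28, against -0.01 over all genes tested. In both 4 h libraries 4 of 10 (Fos, Fosb, Jun and Arc) were at least 2-fold above it, against 4.98% of all genes, and at 8 h 1 of 10 (Fosb), against 6.83%. None of the 10 passed edgeR's adjusted threshold at any time. The highest at 1 h were Npas4 (7.43), Fosb (6.68) and Fos (6.52), and the lowest Jun (1.97), Dusp1 (3.42) and Arc (3.78). Arc, which acts at synapses and is known as an EGR target, had 148 normalized CPM in the control, 2022 at 1 h, 2593 and 928 in library 1 and library 2 of 4 h and 152 at 8 h. Npas4, a neuron-specific activity factor, had 3.92, 694, 130, 4.92 and 5.13, so that, as for Egr1, library 2 of 4 h was near the control.

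Of the 11 genes upstream of EGR promoters (SRF and its partners, CREB, ERK and MSK kinases), 1 was at least 2-fold above the control at 1 h, near the 5.46% of all genes tested, and the median was -0.09. That gene was Srf, which binds CArG boxes, with 38.8 normalized CPM in the control, 99.5 at 1 h, 54.1 and 40.4 in the 4 h libraries and 37.8 at 8 h, and a fitted log2 change of 1.36 ± 0.28 (SE) for 1 h. Next at 1 h were Elk4 (0.56) and Elk3 (0.05), and lowest were Elk1 (-0.26), Mrtfa (-0.17) and Mrtfb (-0.11). None was 2-fold above or below the control at 4 h or 8 h, where the medians were -0.23 and -0.04. Of all genes, 4.98% were above and 1.51% below in both 4 h libraries, and 6.83% and 3.41% at 8 h. The lowest at 4 h were Rps6ka5 (-0.74), Elk1 (-0.71) and Mapk3 (-0.62), and the highest Elk4 (0.68), Mrtfa (0.41) and Srf (0.28). The lowest at 8 h were Mapk3, which encodes ERK1 (-0.81 ± 0.21), and Rps6ka5, which encodes the kinase MSK1 (-0.74 ± 0.25), and none of the 11 passed edgeR's adjusted threshold.

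The 5 coregulators of EGR or NAB proteins had medians of -0.01, -0.02 and 0.10 at 1 h, 4 h and 8 h and no value past 2-fold, though at 4 h they went both ways. Of all genes tested, 5.46% were 2-fold above and 3.85% below the control at 1 h. These shares were 4.98% and 1.51% in both 4 h libraries and 6.83% and 3.41% at 8 h, so no value past 2-fold among 5 genes is near them. Chd4, a chromatin remodeler recruited by NAB2, had 267 normalized CPM in the control, 274 at 1 h, 197 and 211 in the 4 h libraries and 286 at 8 h, and was the lowest of the 5 at 4 h (-0.39 ± 0.16). Ddx20, a helicase also known to bind EGR proteins, was the highest of the 5 at 4 h (0.59 ± 0.27). Of the 4 other zinc finger factors of GC-rich sites, Sp1, Sp3 and Sp4 were tested and none was past 2-fold, with log2 fold changes from -0.14 to -0.07 at 1 h and, at 4 h, 0.41 for Sp1, 0.04 for Sp3 and 0.45 for Sp4. Wt1 had at most 2 counts in a library, under the floor of 3 counts.

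Among 22 genes known as EGR targets, 2 (Arc and Th) were at least 2-fold above the control at 1 h, against 5.46% of all genes, and none 2-fold below it, against 3.85%, and the median log2 fold change was 0.09. In both 4 h libraries 4 (Arc, Th, Vegfa and Icam1) were above, against 4.98% of all genes, and 1 (Mmp9) below, against 1.51%, with a median of 0.18, against 0.01 over all genes. At 8 h Th and Icam1 were above, against 6.83% of all genes, and Mmp9 below, against 3.41%, with a median of 0.01. None of the 22 was called by edgeR at any time. Highest at 4 h were Arc (3.58), Th (1.60) and Icam1 (1.53), and lowest Mmp9 (-0.92), Trp53 (-0.26) and Syn2 (-0.22). Th rests on 7 counts in the control, 13 at 1 h and 22 and 24 at 4 h, and Mmp9 on 24 in the control and 10 and 11 at 4 h. Gabra4, a GABA receptor subunit gene bound by EGR3, had 102 normalized CPM in the control, 109 at 1 h, 219 and 198 in the 4 h libraries and 101 at 8 h, just under 2-fold in library 2. Vegfa, the endothelial growth factor gene, had 48.4, 57.4, 109, 98.4 and 95.7 in the same order. For Gabra4 and Vegfa the 4 h libraries were 1.11-fold apart, unlike Arc, for which they were 2.79-fold apart.

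Egr2 drives peripheral myelin genes in Schwann cells, and none of the 5 tested genes of that list was past 2-fold in the 1 h library, the 8 h library or both 4 h libraries, with medians of 0.25, 0.29 and -0.08 at 1 h, 4 h and 8 h. Of all genes tested, 5.46% were 2-fold above and 3.85% below the control at 1 h. These shares were 4.98% and 1.51% in both 4 h libraries and 6.83% and 3.41% at 8 h. No value past 2-fold among 5 genes is near them. Mag and Mbp are also on the oligodendrocyte list, so they cannot be read as genes of Schwann cells here. Pmp2, a Schwann cell marker, had 0 counts in all 5 libraries, and Prx, another, had 7 to 13, while Egr2 itself was at 2.41 normalized CPM in the control and 212 in the 1 h library. The highest of the myelin list at 4 h was Pmp22 (0.86 ± 0.40), with 12.0 normalized CPM in the control, 27.8 in library 1 and 15.8 in library 2. The remaining marker sums, in the order of the libraries, were 3104, 3875, 3667, 4724 and 3112 for oligodendrocytes, led by Mbp, 98.2, 104, 96.6, 119 and 87.6 for their precursors, led by Pdgfra, 188, 194, 166, 169 and 178 for microglia, led by Csf1r, and 80.6, 78.3, 114, 69.8 and 91.0 for endothelium, led by Flt1. Red blood cell genes, led by Hbb-bs, summed to between 93.3 and 193, striatal markers to 43.7, 36.0, 41.6, 61.3 and 48.7, and T cell and neutrophil markers, led by S100a9, to at most 1.82, with at most 3 counts for Cd3e and Cd3g in any library. Within these sums genes went different ways. In the control and the 4 h libraries, Drd1 of the striatal list had 7.54, 20.9 and 15.7 normalized CPM, and Ppp1r1b 33.9, 17.6 and 42.5. P2ry12 of the microglia list had 31.9, 13.9 and 17.8, and C1qa 23.1, 32.4 and 29.1. Tek of the endothelium list had 13.3, 7.19 and 6.19, and Pecam1 13.1, 23.0 and 15.2.

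The genes whose pattern was most like that of each member were sought over the 5 libraries, by the root mean square difference of log2 (normalized CPM + 0.5), each centred on its mean, among 12664 genes with at least 5 normalized CPM in some library. For Egr1 these were Dusp1 (0.23), which encodes a phosphatase of MAP kinases, Arl5b (0.25) and Kcne4 (0.27). Dusp1 had 8.09, 87.9, 38.4, 8.36 and 5.48 normalized CPM in the order of the libraries, and so shared with Egr1 the low value in library 2 of 4 h and a value below the control at 8 h. No gene was as near to Egr2, whose closest were Gm47088 (0.65), Btg2 (0.67) and Gm47075 (0.68). Gm47088 and Gm47075 are transcript models that lie within Homer1, a postsynaptic scaffold gene, on its strand, and the counts went from 24 and 25 in the control to 1399 and 2167 at 1 h. Btg2, an antiproliferative immediate early gene, had 16.2, 690, 68.7, 12.2 and 16.4 normalized CPM.

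Egr3 was closest to Amigo3 (0.31), Gmppb (0.37) and Dusp5 (0.37). Unlike Egr3, Gmppb was near its control level in the 8 h library, with 14.0, 55.8, 35.5, 28.9 and 15.7 normalized CPM in the order of the libraries. Egr4 was closest to Junb (0.36), an AP-1 subunit gene with 26.3, 558, 161, 38.0 and 17.6 normalized CPM, then to 1700016P03Rik (0.49) and Gm17024 (0.50). The transcript 1700016P03Rik overlaps Mir132 and Mir212 on the same strand, and had 41 counts in the control, 1553 at 1 h, 620 and 286 in the 4 h libraries and 68 at 8 h. Nab2 was closest to Zfp869 (0.06), which had 31.1, 63.8, 42.7, 38.8 and 33.6 normalized CPM, Atg101 (0.13) and A330074H02Rik (0.13). Nab1 had neighbours at 0.03 in Fat3, Elp5 and BC005537. Among the 6 genes themselves, Nab1 and Nab2 were 0.31 apart, and Egr3 was 0.70 from Nab2 and 0.75 from Egr1. Egr1 was 0.72 from Egr4, and Egr2 and Egr3 were the least alike of the EGR genes, at 1.73. The measure depends on the size of a change as well as on its shape. At 1 h Egr3 was 8.34-fold above the control and Nab2 2.13-fold.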

How the data were processed

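The authors deposited raw read counts per gene, one file for each of 5 libraries of total RNA. According to the submitters' processing notes, reads were aligned with STAR 2.5.1b to GRCm38.p4 and counted with HTSeq; neither strand setting nor annotation release could be found in the sources used here. Summary lines of reads on no gene (24.7% to 33.1% of reads) were left out. Counts were analysed with edgeR 4.0.16 in R 4.3.3: filterByExpr, TMM (factors 1.04, 0.992, 0.924, 0.991 and 1.06), and a quasi-likelihood fit of 4 groups with Benjamini-Hochberg adjustment at a threshold of 0.05. The biological coefficient of variation was 0.238, with 4.42 prior degrees of freedom. Fold changes use a prior count of 2. Their standard errors are the absolute log2 fold change without a prior count, divided by the square root of the quasi-likelihood F statistic. The tools were checked on simulated data for 4 h against the control, where edgeR, DESeq2 and limma-voom found most of the changed genes but made more false calls than the threshold allows. Intervals are exact Poisson for counts and exact binomial (Clopper-Pearson) for ratios, at 95%, from scipy 1.17.1. Gene positions and exon lengths are from GENCODE M21 and promoters from RefSeq (GRCm38.p6). The alternatives used median-of-ratios scaling, library size alone, DESeq2 1.42.0, limma-voom (limma 3.58.1), an assumed coefficient of variation of 0.4, no filter, at least 10 counts in every library, a prior count of 0.125, and each 4 h library left out. Plots are from matplotlib 3.10.9 in Python 3.11.15. From each list the text names the genes past the 2-fold threshold and some of the highest and lowest, and for each member the 3 nearest patterns. The planned rule, 3 highest and 3 lowest each time, was not kept throughout, so genes such as Chd4, Ddx20, Gabra4, Pmp22 and Npas4 were named after their values were seen. The members and lists were chosen with earlier results of these data known.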

Additional observations from a re-analysis of the deposited data

Results flagged for a closer look

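Of the 6 genes, 3 were above the control in the 1 h and 4 h libraries and below it in the 8 h library, against 6.65% of all genes tested and 4 of 10 immediate early genes outside the family (Dusp1, Jun, Junb and Nr4a1). The ratio to the control was above 1 in the 1 h and 4 h libraries, though for Egr1 in library 2 of 4 h not beyond counting error (1.06, 0.943 to 1.19), and below 1 in the 8 h library for Egr1 (0.654 times the control, exact binomial 95% interval 0.570 to 0.749), Egr2 (0.497 times, 0.283 to 0.846) and Egr4 (0.618 times, 0.416 to 0.907). The difference between 1 h and 8 h was not tested. Against the control, the 8 h log2 fold changes were -0.61 ± 0.75 (SE), -0.95 ± 1.28 and -0.67 ± 0.74, each within 1 standard error of 0, with Benjamini-Hochberg adjusted p values of 1.00 in edgeR, and 0.352 to 1.00 over the 7 alternatives. The difference between 8 h and 4 h did not pass edgeR's quasi-likelihood test for any of the 3, with Benjamini-Hochberg adjusted p values of 0.570, 0.540 and 0.463. Over the 7 alternatives it passed in 1, 1 and 2 of them for Egr1, Egr2 and Egr4. Without the filter on low counts, edgeR's Benjamini-Hochberg adjusted p values were 2.16e-11, 9.36e-21 and 6.91e-19. With library size alone that of Egr4 was 0.0268. The 8 h group is 1 library of 16612225 gene counts, and the intervals cover counting error only.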

How the results depend on the processing

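Calls are given in the order 1 h, 4 h and 8 h against the control, 4 h against 1 h, and 8 h against 4 h, where edgeR called 0, 1, 0, 1 and 0 genes and none of the 6. With library size alone it called 57, 237, 22, 67 and 120 genes and 3, 2, 0, 3 and 1 of the 6. Without the filter on low counts it called 285, 1300, 279, 725 and 957 genes and 5, 4, 1, 4 and 4 of the 6, in a fit whose prior degrees of freedom were infinite, so that all genes shared the trend of the spread. DESeq2 called 56, 238, 33, 109 and 129 genes and 2, 1, 0, 1 and 0 of the 6, and an assumed coefficient of variation of 0.4 called 40, 81, 12, 33 and 48 genes and 2, 0, 0, 1 and 0 of the 6. Median-of-ratios factors and limma-voom called 0 genes each time, and at least 10 counts in every library gave 1, 0, 0, 0 and 0, with none of the 6 under these settings. The cause of these differences was otherwise not tested.

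Of 240 log2 fold changes of the 6 genes under other tests, filters, scalings and prior count, 204 kept their direction and their side of the threshold, 34 kept their direction and passed it, and 2 turned sign, both of Nab1: -0.000599 at 8 h against the control without the filter, and -0.0107 at 4 h against 1 h with library size alone. Those with the other prior count carry the main fit's p, so they could not change their side of the threshold. Of 36 fitted without 1 of the 4 h libraries, which have no test, 1 turned sign, Nab1 at 4 h against 1 h without library 1 (-0.111; 0.19 without library 2), against 0.05 with both. Library size alone moved the median of all genes at 4 h by -0.12 against the control and by 0.14 at 8 h against 4 h. The EGR to NAB ratio at 1 h, 7.54-fold in the main setting, was 10.1-fold without Egr1, 9.36-fold without Egr3 (added after the data were seen), 5.68-fold with Nab2 alone below and 8.28-fold per exon length. At 8 h it was 1.63-fold without Egr1 and 0.603 without Egr3. At 4 h it was 1.90 to 3.05 with a single library. No paired analysis was possible, since each mouse was sacrificed at 1 time and no label links libraries across times. With 1 library for the control, 1 h and 8 h, depth limits the low genes, as Egr2 had 48 and 21 counts in the control and at 8 h.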
